A study of Homo sapiens with 6 samples.

Results

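IER3IP1, BTF3L4, LXN, KCTD20, FAM228B and ARSJ are 6 genes with no known common pathway that were chosen because their signal was about 2-fold or more higher in A549 cells with a hairpin against TIGD1. They are 6 of 18244 genes measured, and 16 of 49293 probe sets carry exactly 1 of these symbols. IER3IP1, BTF3L4 and LXN have 2 probe sets each, KCTD20 and FAM228B have 3 each, and ARSJ has 4. A probe set is a group of short probes on the array that are summarised into 1 value. The choice used the signal of these genes in the comparison described here, so the differences of the 6 genes are a description and carry no test.

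A549 is an established human line from a lung adenocarcinoma. In one group the cells received a lentivirus with a short hairpin RNA (shRNA) directed at TIGD1 (a gene related to DNA transposases) and this group has 3 arrays labelled shTIGD1. The other group received a lentivirus with a control hairpin and has 3 arrays labelled shControl. Both groups grew in DMEM with serum and antibiotics, and 1 hairpin per group was used, so an effect of the hairpin's own sequence and an effect of less TIGD1 cannot be told apart. The labels do not say that the arrays of a group came from separate cultures, so errors and p-values measure the spread between these arrays, which may be technical. The hairpin sequences in the labels, where the control is called shNC, are shown because they are the only stated difference between the groups.
shTIGD1: ctgctaacacaacatccat
shControl: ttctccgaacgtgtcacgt

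The array medians lay between 6.27 and 6.28 on the log2 scale. TIGD1 itself read 6.88, 6.84 and 6.86 on the arrays labelled shTIGD1 and 6.96, 6.93 and 6.85 on those labelled shControl, which differ by -0.06 on the log2 scale (SE 0.04, limma adjusted p = 0.389). The targeted transcript thus did not pass as lower, so the groups are named here only as the labels name them; it turned to 0.16 and 0.27, both past the threshold as higher, when arrays were scaled on the hybridization or poly-A controls. All 10 markers of epithelium and of A549 cells were detected, with means of 8.50 to 14.15 in shTIGD1 and 7.63 to 14.19 in shControl. Endothelial markers stayed under 6 in both groups (4 of 4), as did 5 of 5 fibroblast and 3 of 5 immune markers. Of all these markers EPCAM and CDH1 were past the threshold as higher (0.87 and 0.66), and COL3A1 and ITGAM as lower (-0.56 and -0.19). The immune markers CD14 and CD68 lay above 6, at 8.21 and 7.40 in shTIGD1 and 8.21 and 7.36 in shControl, while PTPRC, which defines leukocytes, read 3.05 in shTIGD1 and 3.22 in shControl. Summed over a list, as log2 of the summed linear signals, the fibroblast markers were at 7.08 to 7.21 on the shTIGD1 arrays and 7.30 to 7.43 on the shControl arrays, and the immune markers at 8.94 to 9.08 on the shTIGD1 arrays and 8.97 to 9.12 on the shControl arrays. Endothelial markers summed to 6.95 to 7.10 on the shTIGD1 arrays and 7.07 to 7.13 on the shControl arrays. The difference between the 3′ and 5′ probe sets of ACTB, a sign of RNA integrity, was 0.31 to 0.36 on the shTIGD1 arrays and 0.37 to 0.40 on the shControl arrays. For GAPDH it was -0.15 to -0.11 on the shTIGD1 arrays and -0.08 to -0.04 on the shControl arrays. These small offsets run with the groups, and their part and that of the markers in the results were not tested. In bulk RNA a smaller share of cells with a transcript and less of it per cell cannot be told apart.

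The proteins have unlike roles. IER3IP1 is a small membrane protein of the endoplasmic reticulum (ER) that acts in traffic from the ER to the Golgi, and its loss in humans causes microcephaly with epilepsy and diabetes. BTF3L4 is a close relative of BTF3, the beta subunit of the nascent polypeptide-associated complex, which binds new chains as they leave the ribosome. LXN, latexin, inhibits zinc metallocarboxypeptidases. KCTD20 has a BTB domain and has been described with its relative BTBD10 as an activator of AKT kinases. ARSJ is a member of the arylsulfatase family, enzymes that remove sulfate groups, and FAM228B is little studied.

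Promoter windows were looked up because all of the genes were chosen for a higher signal on the shTIGD1 arrays. The windows run from 250 bases before to 50 bases after a gene's start in RefSeq (GRCh38.p14). Of the genes 5 had at least 1 window and FAM228B had 2, and the windows shown are those that hold the start of another gene as well (BTF3L4, KCTD20 and the second of FAM228B) and that of LXN, which held the most kinds of motif. Capitals mark matches to the motifs searched on both strands, which were the CCAAT box, the ETS motif CCGGAAG, the CRE palindrome TGACGTCA, the GC box core GGGCGG, the TATA box as TATAAA, and the NRF1 motif.
BTF3L4, chr1:52056045-52056344, plus strand: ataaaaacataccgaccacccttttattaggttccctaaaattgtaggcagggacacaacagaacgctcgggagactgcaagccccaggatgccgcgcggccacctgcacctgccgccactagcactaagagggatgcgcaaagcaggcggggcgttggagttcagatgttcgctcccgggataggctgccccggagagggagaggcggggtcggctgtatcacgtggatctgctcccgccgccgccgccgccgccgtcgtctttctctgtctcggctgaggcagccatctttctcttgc
KCTD20, chr6:36442750-36443049, plus strand: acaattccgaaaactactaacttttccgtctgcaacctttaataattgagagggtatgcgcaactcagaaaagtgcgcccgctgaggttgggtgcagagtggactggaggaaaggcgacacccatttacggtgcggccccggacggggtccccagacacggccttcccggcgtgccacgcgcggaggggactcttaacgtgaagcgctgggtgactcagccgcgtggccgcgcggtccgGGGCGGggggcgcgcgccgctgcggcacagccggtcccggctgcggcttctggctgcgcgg
FAM228B, chr2:24123219-24123518, plus strand: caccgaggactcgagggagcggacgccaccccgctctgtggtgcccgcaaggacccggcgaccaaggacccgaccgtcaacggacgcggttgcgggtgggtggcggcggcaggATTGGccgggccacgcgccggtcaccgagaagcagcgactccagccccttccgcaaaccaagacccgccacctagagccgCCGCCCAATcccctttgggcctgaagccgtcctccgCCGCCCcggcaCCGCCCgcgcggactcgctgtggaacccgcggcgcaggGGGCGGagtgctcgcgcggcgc
LXN, chr3:158672599-158672898, minus strand: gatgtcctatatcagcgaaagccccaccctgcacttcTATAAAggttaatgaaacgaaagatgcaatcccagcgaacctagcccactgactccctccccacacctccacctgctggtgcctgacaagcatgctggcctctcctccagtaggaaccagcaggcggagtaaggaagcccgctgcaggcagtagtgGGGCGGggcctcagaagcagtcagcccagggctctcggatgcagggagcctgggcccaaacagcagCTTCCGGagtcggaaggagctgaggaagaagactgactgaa

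No motif of the 6 was present in all of these windows. GGGCGG was found in the windows of LXN, KCTD20 and FAM228B, and 56.3% of the 22199 windows of protein-coding genes hold it. It occurred 4 times in the FAM228B window shown, where 1 match shares bases with a CCAAT match, and 7 times in the other FAM228B window. CCAAT occurred 2 times in the FAM228B window shown (34.7% of windows hold it), and LXN had 1 CCGGAAG (12.8%) and 1 TATAAA at position -213 from the start (9.47%). BTF3L4 and ARSJ had no match to any of the 6, and neither the NRF1 motif (1.5% of windows) nor the CRE palindrome (2.26%) was in any window of the genes. The windows had a GC content of 56.7% (ARSJ) to 74.7% (the FAM228B window shown), against a median of 62.3% over the windows of protein-coding genes.

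The 16 probe sets were all higher on the arrays labelled shTIGD1, by 0.31 to 1.37 on the log2 scale with a median of 1.02, where the median of all probe sets was -0.02. In each of the 16 the lowest shTIGD1 array lay above the highest shControl array, which holds for 19.4% of all probe sets. A limma adjusted p under 0.05 was reached by 15 of the 16 as higher, against 11.5% of all probe sets. Since the genes were picked by this difference, nothing is read from these counts. A 2-fold difference was reached by 8 probe sets and not by the other 8. The SD over 3 arrays was 0.01 to 0.24 in shTIGD1 and 0.01 to 0.26 in shControl, and the SE of a difference 0.04 to 0.13.

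**Figure D1:**
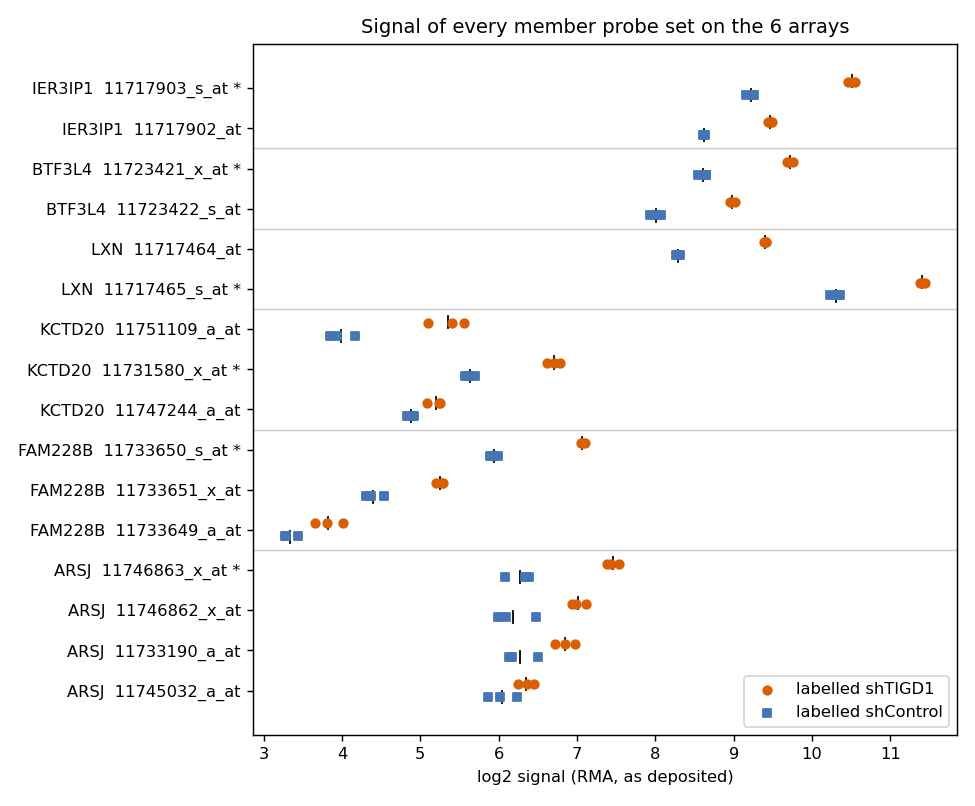
Log2 signal (horizontal) of the 16 probe sets (rows, grouped by gene), with the 3 arrays labelled shTIGD1 as circles above the 3 labelled shControl as squares; vertical ticks are group means and a star marks the brightest probe set of a gene. The groups are separate in every row, closest for the ARSJ probe set 11745032_a_at, where the gap is 0.01.

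IER3IP1 (chromosome 18, 47152834 to 47176364 in GRCh38.p14) had the largest difference among the brightest probe sets. Its probe set 11717903_s_at read 10.54, 10.51 and 10.46 on the arrays labelled shTIGD1 and 9.26, 9.25 and 9.16 on those labelled shControl. Averages were 10.51 ± 0.04 in shTIGD1 and 9.22 ± 0.06 in shControl (SD, n = 3 each), which differ by 1.28 or 2.43-fold, the 6th largest positive difference of all genes. The other probe set, 11717902_at, read 9.49, 9.43 and 9.48 on the shTIGD1 arrays and 8.62, 8.64 and 8.61 on the shControl arrays, a difference of 0.85. The closest arrays of the groups were 0.80 apart on the dimmer probe set, and the differences of the probe sets are 0.44 apart in size on the log2 scale.

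BTF3L4 (chromosome 1, 52056295 to 52090716) gave nearly the same difference on both of its probe sets. The probe set 11723421_x_at read 9.76, 9.68 and 9.70 on the shTIGD1 arrays and 8.64, 8.64 and 8.54 on the shControl arrays, a difference of 1.11. For 11723422_s_at the values were 8.97, 9.01 and 8.95 in shTIGD1 and 8.08, 8.01 and 7.93 in shControl, a difference of 0.97. The closest arrays of the groups were 0.87 apart. A further probe set is assigned to both BTF3L4 and its pseudogene BTF3L4P1 and was therefore not a member. It read 8.20 ± 0.02 in shTIGD1 and 6.65 ± 0.28 in shControl (SD, n = 3 each), and its shControl arrays spread more widely (6.37, 6.93 and 6.64) than its shTIGD1 arrays (8.18, 8.20 and 8.21).

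LXN (chromosome 3, 158666414 to 158672648, minus strand) was the brightest of the 6 genes and the one whose probe sets lay closest together. Its 11717465_s_at read 11.40, 11.45 and 11.38 on the shTIGD1 arrays and 10.33, 10.36 and 10.22 on the shControl arrays, a difference of 1.10. The dimmer 11717464_at read 9.41, 9.41 and 9.39 in shTIGD1 and 8.26, 8.31 and 8.29 in shControl, a difference of 1.12. The changes of the probe sets thus differed by 0.01, although their levels differ by about 2 units on every array (1.93 to 2.06). In the control arrays LXN stood at the 88.5th percentile of all genes.

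KCTD20 (chromosome 6, 36443000 to 36491141) had probe sets that differed widely in size. The brightest, 11731580_x_at, read 6.78, 6.71 and 6.62 on the shTIGD1 arrays and 5.57, 5.62 and 5.70 on the shControl arrays, a difference of 1.07 or 2.10-fold. The dimmest, 11751109_a_at, read 5.10, 5.56 and 5.40 in shTIGD1 and 3.85, 3.94 and 4.17 in shControl, a difference of 1.37. The remaining one, 11747244_a_at, read 5.24, 5.09 and 5.25 in shTIGD1 and 4.89, 4.92 and 4.84 in shControl, a difference of only 0.31. The span between them is 1.05 on the log2 scale, and 0.76 without the dimmest, against 0.87 for the probe sets of ARSJ. The dimmest had the widest spread of the 16 (pooled SD 0.20, above 97.1% of all probe sets). Its shControl mean of 3.99 lies below the shControl means of the 4 endothelial markers, 4.88 to 5.42. That of 11747244_a_at is at their lower end (4.88), so the differences of both are not exact sizes. The shControl mean of the brightest, 5.63, lies within those of the 5 fibroblast markers (2.94 to 5.88). Its 2.10-fold is thus not an exact size either.

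FAM228B (chromosome 2, 24076833 to 24169638) showed a smaller difference the dimmer the probe set was. The brightest, 11733650_s_at, read 7.04, 7.07 and 7.10 on the shTIGD1 arrays and 5.94, 5.99 and 5.89 on the shControl arrays, a difference of 1.13 or 2.19-fold. For 11733651_x_at the values were 5.28, 5.28 and 5.19 in shTIGD1 and 4.37, 4.53 and 4.31 in shControl, a difference of 0.85. The dimmest, 11733649_a_at, read 3.81, 4.01 and 3.66 in shTIGD1 and 3.28, 3.44 and 3.28 in shControl, a difference of 0.49. Both of the dimmer probe sets lie under 5 in shControl, below the endothelial markers, so their differences are not exact sizes either. The shControl mean of the brightest, 5.94, lies close above that of the highest fibroblast marker, 5.88.

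ARSJ (chromosome 4, 113900284 to 113979647, minus strand) spanned from 2.27-fold to a difference that did not pass. Its brightest probe set in the mean of all arrays, 11746863_x_at, read 7.53, 7.39 and 7.44 on the shTIGD1 arrays and 6.39, 6.34 and 6.09 on the shControl arrays, a difference of 1.18. The values of 11746862_x_at were 6.99, 6.94 and 7.12 in shTIGD1 and 6.48, 6.09 and 5.99 in shControl (0.83), and those of 11733190_a_at were 6.72, 6.84 and 6.97 in shTIGD1 and 6.50, 6.17 and 6.14 in shControl (0.58). The shControl replicate 1 array was the highest of its group on these 3 probe sets. On 11745032_a_at the values were 6.46, 6.36 and 6.24 in shTIGD1 and 5.86, 6.02 and 6.23 in shControl, a difference of 0.32. There the groups were apart by 0.01 only, and it was the member probe set that missed the threshold. In shControl all 4 lay within 6.04 to 6.27, while in shTIGD1 they ranged from 6.35 to 7.45.

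The probe sets also differ in kind. In the array maker's naming, _s_at marks probes shared by transcripts of several genes and _x_at probes with close matches elsewhere, while _at and _a_at mark a single gene. The brightest probe set was of the _s_at or _x_at kind in 6 of the 6 genes, against 26.5% of all genes. The 9 member probe sets of these kinds differed by 0.83 to 1.28 (median 1.10), and the 7 of the _at and _a_at kinds by 0.31 to 1.37 (median 0.58). Level differs as well: the _a_at probe sets of KCTD20 and FAM228B had shControl means of 3.33 to 4.88, where differences are not exact sizes. The parts of kind and level in these medians were not tested. BTF3L4 has no probe set of the _at or _a_at kind with its symbol alone. How far signal from other transcripts enters the _s_at and _x_at values was not tested.

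**Figure D2:**
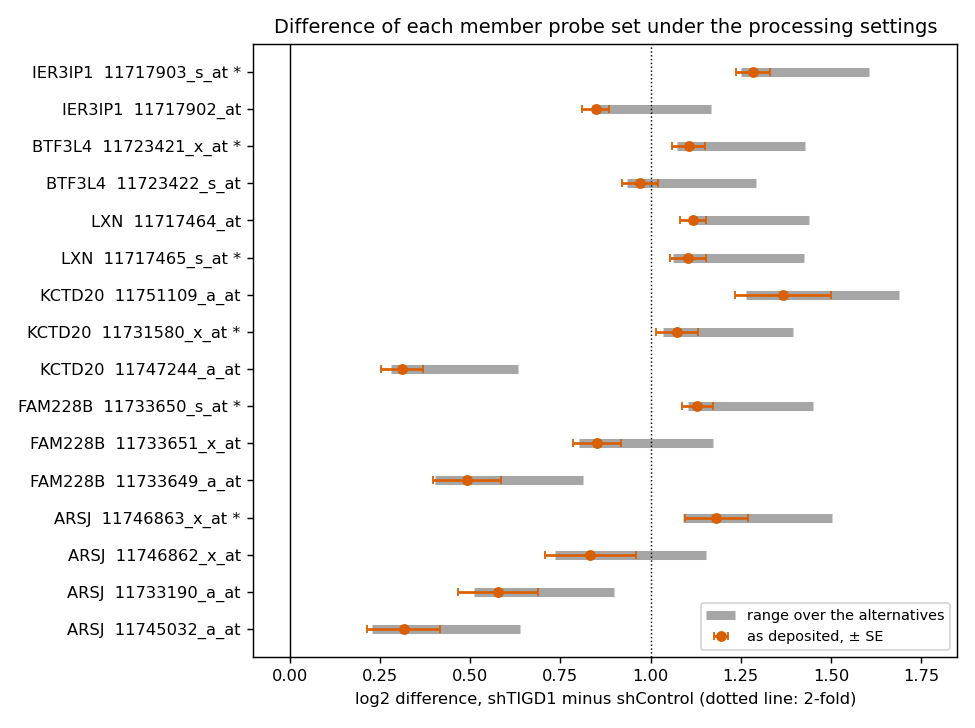
Log2 difference of shTIGD1 minus shControl for each of the 16 probe sets as deposited (circles, with SE) and its range over the processing alternatives (grey bars); the dotted line is 2-fold and a star marks the brightest probe set of a gene. The brightest probe sets lie between 1.07 (KCTD20) and 1.28 (IER3IP1), and no bar reaches 0. The genes were chosen by this difference, so nothing is read from the bars staying above 0.

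At the edge of the choice, MYBL1 (2.01-fold), TM4SF20 (2.04-fold) and ERO1B (2.07-fold) were the last genes at 2-fold or more among those with a mean of at least 6 in the higher group. ST6GAL2 (2.00-fold, log2 difference 1.00 when rounded), IGFBP1 (1.96-fold) and SLC23A1 (1.93-fold) were the first below it. KCTD20, the smallest of the 6 by its brightest probe set, ranked 17th among all genes and IER3IP1 6th. In all, 24 genes past the threshold were higher by at least 2-fold, 18 of them with a mean of at least 6 in the shTIGD1 arrays, so the 6 genes are some of the genes this high and not all of them.

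The pattern over the 6 arrays, taken as the signal minus the shControl mean, was most like that of other members for BTF3L4, LXN, FAM228B and ARSJ. LXN was the nearest gene to FAM228B with a root mean square distance of 0.04, and FAM228B the nearest to LXN. BTF3L4 was nearest to LXN (0.04) and then to FAM228B (0.04), and ARSJ to BTF3L4 (0.08) and FAM228B (0.10). KCTD20 was nearest to FXYD2, a regulator of the sodium pump (0.04), and to ERO1B, an oxidase of the endoplasmic reticulum (0.08). IER3IP1 was nearest to FGB, the fibrinogen beta chain (0.06), and to RBP4, the plasma retinol carrier (0.07). With 2 groups this distance mostly measures the size of the difference. The members were chosen by that size, so nothing is read from members lying near each other.

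Relatives and partners of the 6 proteins were compared with 1 probe set per gene, the brightest. Of 99 measured among 108 listed genes, 12 rose and 16 fell at a limma adjusted p under 0.05. That is 28.3%, where 23.8% of all genes passed (9.81% higher, 14.0% lower). The median log2 difference of the listed genes was -0.02 and that of all genes -0.04. None of the 99 reached 2-fold. Over all 280 probe sets of the listed genes, 48 were higher and 40 lower (17.1% and 14.3%). Among all probe sets 11.5% were higher and 10.6% lower, so the balance turns when the dimmer probe sets are included. The list for LXN had 12 higher and 3 lower of 42 probe sets, and that for BTF3L4 9 and 3 of 39. For KCTD20 it was 4 and 20 of 72, and for ARSJ 1 and 6 of 54. These values hold for the arrays as deposited: levelling the arrays on the spiked hybridization controls moved the median of all genes by 0.22, levelling them on the poly-A controls by 0.32. Under the hybridization control scaling the relatives AKT2, ERGIC1, HSPA14 and KCTD1 kept their sign but lost their calls. So did the neighbours ORC1, STK38 and WDCP, described below. Under the poly-A control scaling the sign of all of these turned. The sign of 12 other named relatives and neighbours already turned under the hybridization control scaling. Of the measured relatives, 60 then passed as higher and 2 as lower.

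Carboxypeptidases and relatives of latexin held 5 rises and 1 fall among 19 measured genes (median 0.05). CPE, which trims prohormones, read 7.94, 7.83 and 7.83 on the shTIGD1 arrays and 7.13, 7.22 and 7.04 on the shControl arrays. This is a rise of 0.74 (SE 0.06, adjusted p = 0.000802), the largest of the listed genes by their brightest probe sets. The other CPE probe set rose by 0.38, at means of 6.24 in shTIGD1 and 5.86 in shControl. CPD, a membrane carboxypeptidase of the secretory pathway, rose by 0.41 (SE 0.04, adjusted p = 0.00158), and its 4 probe sets rose by 0.37 to 0.58. RARRES1, a relative of latexin in sequence, read 10.13, 10.15 and 10.13 on the shTIGD1 arrays and 9.82, 9.81 and 9.82 on the shControl arrays, a rise of 0.32 (SE 0.03, adjusted p = 0.00144), with 0.41 on its other probe set. The groups of CPE, CPD and RARRES1 did not overlap, and each difference was smaller than that of LXN. CPN1, the catalytic subunit of a plasma carboxypeptidase, rose by 0.47 (SE 0.11, adjusted p = 0.0278) at means of 5.54 in shTIGD1 and 5.07 in shControl, a call kept only without shControl replicate 3 when each array was left out in turn (0.39 to 0.60). Its shControl mean lies among those of the endothelial markers (4.88 to 5.42), so the size of this rise is not exact.

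Proteins that act on new chains at the ribosome had 4 rises and 2 falls among 16 measured (median 0.01). BTF3, the nearest relative of BTF3L4, read 13.37, 13.40 and 13.37 on the shTIGD1 arrays and 13.36, 13.32 and 13.36 on the shControl arrays and did not pass (0.03, 95% interval -0.04 to 0.11, adjusted p = 0.506), but it passed as higher with both control scalings. NAA15, the auxiliary subunit of an N-terminal acetyltransferase, rose by 0.48 (SE 0.06, adjusted p = 0.00288), and 3 of its 5 probe sets passed, all higher. SRP9, a subunit of the signal recognition particle, rose by 0.31 (SE 0.03, adjusted p = 0.00205). HSPA14, a ribosome-associated Hsp70 protein, fell by 0.30 (SE 0.04, adjusted p = 0.00405). That call ended with the mean of its 4 probe sets (-0.046), and the difference turned to 0.024 with poly-A control scaling.

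Proteins between the ER and the Golgi, listed together with IER3, had 3 rises and 4 falls among 22 measured (median 0.04). IER3 is counted among these falls and was listed for its name. IER3, the immediate early gene whose product gave IER3IP1 its name, read 11.49, 11.51 and 11.51 on the shTIGD1 arrays and 11.89, 11.93 and 11.89 on the shControl arrays, a fall of 0.40 (SE 0.03, adjusted p = 0.000844), opposite in sign to IER3IP1. It stood at -0.078 with poly-A control scaling, where the call ended. YIPF4, a Golgi membrane protein, rose by 0.30 (SE 0.04, adjusted p = 0.00479), a call lost with the mean of its 3 probe sets (0.072). ERGIC1, a protein of the compartment between ER and Golgi, fell by 0.29 (SE 0.04, adjusted p = 0.00306) and turned to 0.036 with poly-A control scaling. TMEM167A rose by 0.20 (SE 0.04, adjusted p = 0.0151), while YIPF5 differed by 0.09 and did not pass (adjusted p = 0.279), but passed as higher with both control scalings. Over all 71 probe sets of these genes 22 were higher and 8 lower, where 11.5% and 10.6% of all probe sets were.

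The KCTD family with BTBD10 and AKT genes had 0 rises and 6 falls among 24 measured (median -0.05). TNFAIP1, an adaptor of a CUL3 ubiquitin ligase, fell by 0.33 (SE 0.03, adjusted p = 0.00169), AKT2 by 0.28 (SE 0.03, adjusted p = 0.00284) and KCTD1 by 0.26 (SE 0.04, adjusted p = 0.00577). Of the 12 probe sets of AKT2, 8 passed as lower and 0 as higher. With hybridization control scaling the calls of AKT2 (-0.068) and KCTD1 (-0.043) ended and that of TNFAIP1 (-0.11) was kept. With poly-A control scaling TNFAIP1 stood at -0.0071, AKT2 at 0.037 and KCTD1 at 0.062, none of them past the threshold. BTBD10, the relative of KCTD20, read 9.43, 9.44 and 9.42 on the shTIGD1 arrays and 9.45, 9.47 and 9.40 on the shControl arrays on its brightest probe set and did not pass (-0.01, 95% interval -0.09 to 0.07). Its other 3 probe sets were higher by 0.35, 0.33 and 0.16 (limma adjusted p over all probe sets of 0.0026, 0.0146 and 0.039), so the direction of BTBD10 depends on the probe set, and with the control scalings its brightest passed as higher (0.20 and 0.31).

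Sulfatases and sulfatase modifying factors had 0 rises and 3 falls among 17 measured (median -0.08). ARSD fell by 0.20 (SE 0.05, adjusted p = 0.0348) and ARSK, a lysosomal sulfatase, by 0.19 (SE 0.05, adjusted p = 0.0326). SULF2, which edits heparan sulfate outside the cell, fell by 0.17 (SE 0.03, adjusted p = 0.0138). With hybridization control scaling these turned to 0.015, 0.022 and 0.047, and with poly-A control scaling to 0.12, 0.13 and 0.15. When each array was left out in turn, the calls of ARSD (-0.23 to -0.16) and ARSK (-0.23 to -0.16) were kept only without shControl replicate 3, and that of SULF2 ended without shTIGD1 replicate 3 (-0.18 to -0.16). The ARSK call also ended with the mean of its 3 probe sets (-0.12). ARSI, a near relative of ARSJ, differed by 0.04 (95% interval -0.10 to 0.19) at means of 5.22 in shTIGD1 and 5.18 in shControl. Its other probe set differed by -0.33 and did not pass (limma adjusted p over all probe sets of 0.0603), and the brighter passed as higher with both control scalings (0.26 and 0.37), so no direction is given for ARSI. FAM228A, the relative of FAM228B, differed by -0.02 (95% interval -0.36 to 0.33) at means of 3.19 in shTIGD1 and 3.21 in shControl, below the endothelial markers, and turned to 0.20 and 0.30 with the control scalings without passing.

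**Figure D3:**
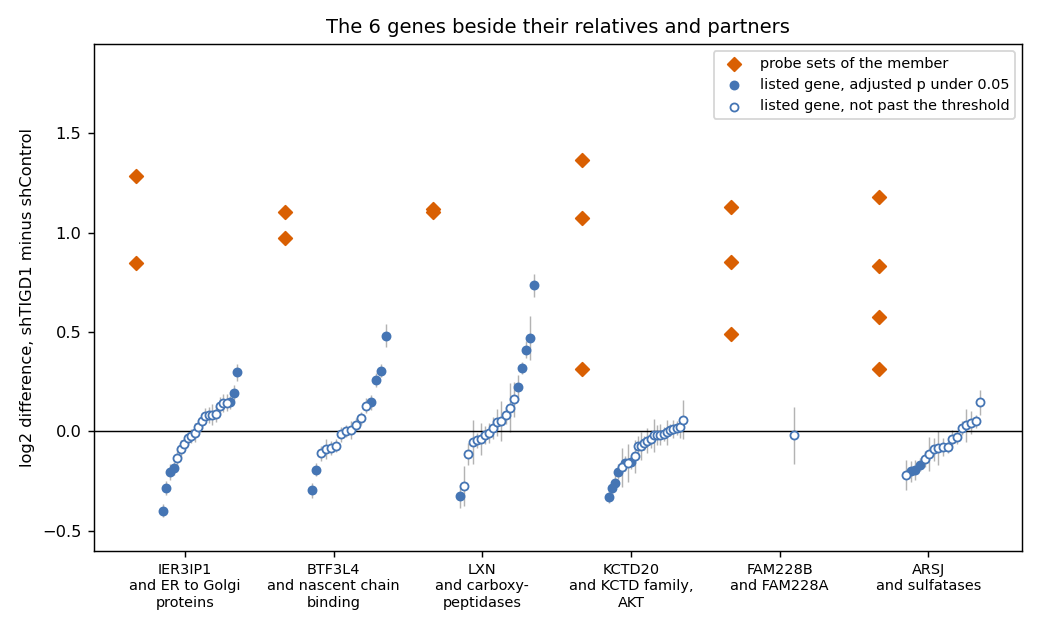
Log2 difference of shTIGD1 minus shControl for the probe sets of each of the 6 genes (diamonds) and for the measured genes of its list (circles with SE, filled where the limma adjusted p was under 0.05, 1 probe set per gene). The listed genes lie between -0.40 (IER3) and 0.74 (CPE).

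The 6 genes lie on 6 chromosomes, and the 3 nearest measured protein-coding genes on each side of each gave 36 neighbours. Of these, 7 rose and 9 fell (44.4% past the threshold, against 23.8% of all genes), with a median of -0.02, and none reached 2-fold. Over all 91 probe sets of the neighbours 15 were higher and 8 lower, which is 25.3% in all, where 11.5% of all probe sets were higher and 10.6% lower, so the larger share holds only for the brightest probe sets and the balance turns with the others. The count was 8 to 10 with 1 array left out, whichever of the 6 it was. With hybridization control scaling it was 20 higher and 2 lower, and with poly-A control scaling 25 higher and 1 lower.

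Around LXN 3 of 6 neighbours rose and 0 fell. MLF1 read 7.91, 7.84 and 7.95 on the shTIGD1 arrays and 7.34, 7.41 and 7.40 on the shControl arrays, a rise of 0.52 (SE 0.04, adjusted p = 0.000908). RARRES1, 24.2 kb from LXN, rose by 0.32 as given above, and MFSD1, a lysosomal transporter gene 129 kb away, rose by 0.26 (SE 0.03, adjusted p = 0.00345). These 3 calls were kept without each array in turn. GFM1, a mitochondrial elongation factor gene whose span overlaps that of LXN on the opposite strand, read 10.39, 10.39 and 10.40 on the shTIGD1 arrays and 10.37, 10.53 and 10.41 on the shControl arrays and did not pass (-0.04, 95% interval -0.16 to 0.08). Its dimmer probe set was higher by 0.21 (limma adjusted p over all probe sets of 0.023), so the direction of GFM1 depends on the probe set, and it turns to 0.17 and 0.28 with the control scalings.

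Several genes start close to the members on the opposite strand. TXNDC12, a thioredoxin-like protein of the ER whose gene starts 124 bases from BTF3L4, read 9.61, 9.57 and 9.59 on the shTIGD1 arrays and 9.47, 9.47 and 9.47 on the shControl arrays, a rise of 0.12 (SE 0.03, adjusted p = 0.0353). Its other probe set differed by 0.22, and 1 of the 2 passed as higher over all probe sets. PXT1, which starts 146 bases from KCTD20, differed by 0.11 and did not pass (95% interval -0.07 to 0.28) at means of 5.03 in shTIGD1 and 4.92 in shControl. PFN4, which starts 22 bases from the second start of FAM228B, differed by 0.06 (95% interval -0.25 to 0.37) at means of 5.15 in shTIGD1 and 5.09 in shControl. The shControl means of PXT1 and PFN4 lie among those of the endothelial markers (4.88 to 5.42), so whether these genes are expressed cannot be told. SF3B6, a splicing factor gene 506 bases from FAM228B, rose by 0.14 (SE 0.04, adjusted p = 0.042). The calls of TXNDC12 (0.11 to 0.13) and SF3B6 (0.12 to 0.17) ended when any 1 of the 6 arrays was left out. PXT1 passed as higher with both control scalings.

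The largest fall among the neighbours was that of CDKN1A, followed by TP53I3. TP53I3, an oxidoreductase gene within the span of FAM228B on the opposite strand, read 10.26, 10.24 and 10.32 on the shTIGD1 arrays and 10.62, 10.63 and 10.60 on the shControl arrays, a fall of 0.34 (SE 0.04, adjusted p = 0.00184). It stood at -0.022 with poly-A control scaling, where the call ended. CDKN1A, the gene of a cell cycle inhibitor 185 kb from KCTD20 and the third gene on that side, read 11.57, 11.53 and 11.61 on the shTIGD1 arrays and 12.23, 12.20 and 12.16 on the shControl arrays, a fall of 0.63 (SE 0.04, adjusted p = 0.000359). Between KCTD20 and CDKN1A, the kinase gene STK38 fell by 0.23 (SE 0.04, adjusted p = 0.007). It stood at -0.013 with hybridization control scaling, where the call ended, and turned to 0.092 with poly-A control scaling. SRSF3, also between KCTD20 and CDKN1A, differed by 0.08 on its brightest probe set and did not pass (limma adjusted p = 0.167). Of its 7 probe sets, 4 passed as higher and 0 as lower over all probe sets.

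Of the other neighbours, WDCP fell by 0.29 (SE 0.06, adjusted p = 0.013), ORC1, a subunit of the origin recognition complex, by 0.25 (SE 0.05, adjusted p = 0.0165), and LARP7, a component of the 7SK complex, by 0.20 (SE 0.04, adjusted p = 0.0145). With hybridization control scaling these stood at -0.077, -0.034 and 0.013, none past the threshold, and with poly-A control scaling at 0.028, 0.071 and 0.12, and the LARP7 call also ended with the mean of its 5 probe sets (-0.077). The ORC1 call ended without shControl replicate 1, shTIGD1 replicate 1 or shTIGD1 replicate 3 (-0.30 to -0.22 over the arrays left out). TRAM1L1, 3103906 bases from ARSJ, rose by 0.33 (SE 0.08, adjusted p = 0.0327), a call kept only without shControl replicate 2 or 3 (0.24 to 0.39). KTI12 (-0.16, adjusted p = 0.0472) kept its call only without shTIGD1 replicate 3 (-0.20 to -0.12). HDHD2 (-0.13, adjusted p = 0.0499), SMAD2 (-0.11, adjusted p = 0.043) and CTIF (0.13, adjusted p = 0.0426) lost theirs when any 1 of the 6 arrays was left out, with ranges of -0.15 to -0.10, -0.12 to -0.10 and 0.11 to 0.15. The sign of KTI12, HDHD2 and SMAD2 turned with both control scalings; SMAD2 then passed as higher with both, HDHD2 with the poly-A controls and KTI12 with neither. With the mean of their probe sets HDHD2 (0.031), SMAD2 (0.050) and CTIF (0.083) did not pass. The neighbours ZFYVE9 (-0.03), CAMK2D (-0.07) and UGT8 (0.05) did not pass, and all 3 passed as higher with both control scalings (ZFYVE9 0.19 and 0.29, CAMK2D 0.15 and 0.25, UGT8 0.26 and 0.37).

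**Figure D4:**
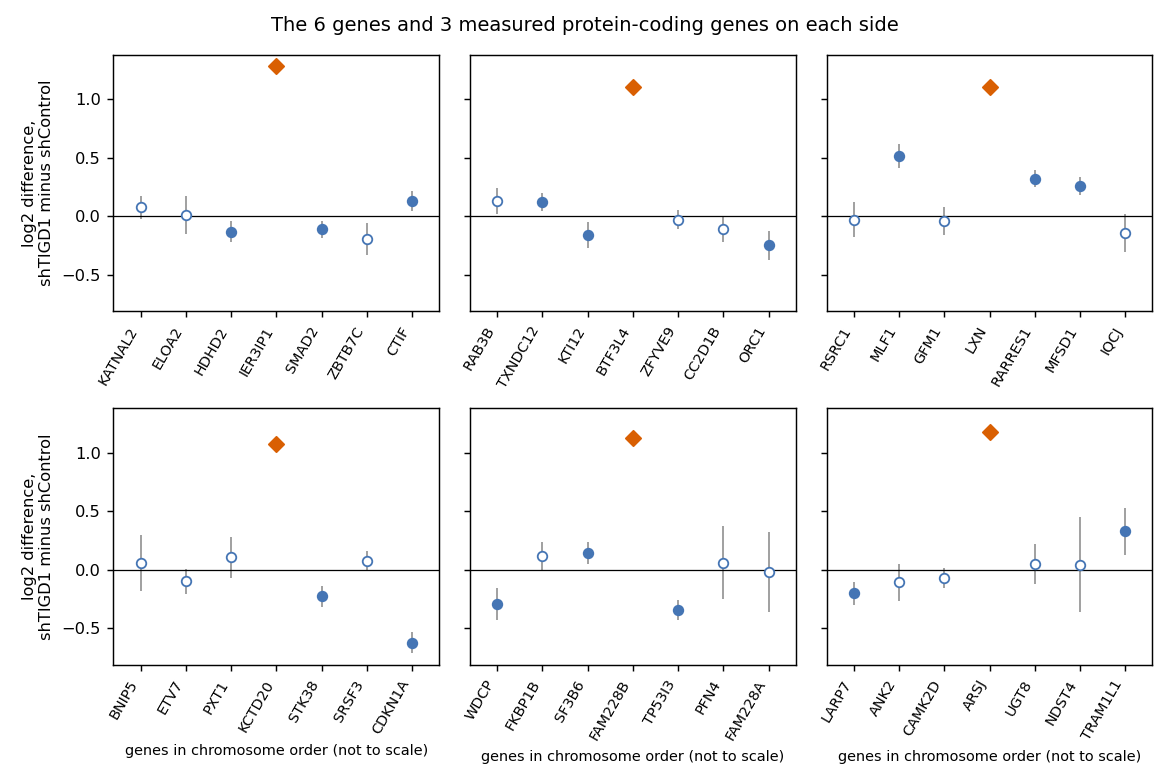
Log2 difference of shTIGD1 minus shControl for each of the 6 genes (diamond, brightest probe set) and its 3 nearest measured protein-coding genes on each side in chromosome order (circles with 95% intervals, filled where the limma adjusted p was under 0.05). The neighbours lie between -0.63 (CDKN1A) and 0.52 (MLF1).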

How the data were processed

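RNA from the A549 cells was hybridized to 1-colour arrays. The authors deposited 1 log2 signal for each probe set; GCOS and RMA are named in the submitters' processing notes, with versions not given in the sources used here, and base 2 is taken from their range. RMA makes the distributions of the arrays alike, so a shift common to most genes would be removed. The depth of an array has no count, and the 6 arrays limit the precision. Any 2 arrays shared the same value at no more than 184 probe sets.

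Of 49395 probe sets 102 were controls. Of the others, 45278 have 1 symbol in the platform annotation, 1333 have several and 2682 have none, and a current gene table changed 0 symbols. Each of the 18244 genes was represented by its brightest probe set over the 6 arrays; the 6 genes were followed on every probe set. The 3 arrays labelled shTIGD1 were compared with the 3 labelled shControl with limma 3.58.1 (lmFit, then eBayes; R 4.3.3), with Benjamini-Hochberg adjustment over all genes, or over all probe sets where stated, at 0.05. Tables were made with Python 3.11.15 and pandas 2.3.3. In simulated data for this comparison over 18244 genes, the test found 42% of genes changed 1.2-fold and 78% of those changed 1.5-fold. It found 98% of those changed 2-fold and 100% of those changed 3-fold, and 4 of its 163 calls were false. Far fewer genes were changed there than the 23.8% called in the data, so these rates do not give the sensitivity of the real comparison.

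The members, the lists of relatives and the rules were chosen with earlier results of these data known. Named were all members, at most 3 genes per list, by size among those past the threshold, 7 nearest relatives, the nearest neighbours and every neighbour past the threshold, the 2 genes most alike each member and the 3 genes on each side of 2-fold. The neighbours PFN4 and SRSF3 were named in addition, for their positions. Neighbours and windows come from RefSeq (GRCh38.p14), with no window for IER3IP1 used here. Alternatives were the average of all probe sets of a gene, repeated quantile normalization, equal medians, scaling on hybridization or poly-A controls, a mean signal of at least 5, eBayes with trend and robust settings, the replicate number as a block, and leaving out each array.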

Additional observations from a re-analysis of the deposited data

How the results depend on the processing

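The 16 member values kept their sign under every alternative run on them, 13 for 13 probe sets and 12 for the 3 with a mean under 5 (11751109_a_at, 11733651_x_at and 11733649_a_at). Nothing is read from this, since the genes were chosen by this difference. The groups were separate on every member probe set, so leaving out 1 array could not turn a sign. The control scalings raise every difference, and the signal filter, the block and the eBayes settings leave it unchanged. The median of the member values, 1.02, became 1.24 on the hybridization controls and 1.34 on the poly-A controls, and was 1.00 to 1.05 with 1 array left out. These scalings moved the median of all genes by 0.22 and 0.32. Against 4340 genes, 10867 probe sets, 28 relatives and 16 neighbours past the threshold, hybridization control scaling gave 9666 genes (9290 higher, 376 lower), 26585 probe sets, 62 relatives (60 higher, 2 lower) and 22 neighbours. Poly-A control scaling gave 12532 genes (12435 higher, 97 lower), 34794 probe sets, 71 relatives (71 higher, 0 lower) and 26 neighbours. With 1 array left out there were 2741 to 3386 genes, 6676 to 8628 probe sets, 19 to 24 relatives and 8 to 10 neighbours. These fits have fewer arrays, and the part of that in the lower counts was not tested. Averaging all probe sets of a gene gave 22 rises and 16 falls among the relatives, against 12 and 16.

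The replicate number as a block gave 2391 genes, 6462 probe sets, 18 relatives and 8 neighbours. The labels number the arrays without tying them together, and same-numbered arrays deviated from their group means with correlations of -0.03, -0.13 and -0.09. No array correlated best with its own number. Whether same-numbered arrays were handled together cannot be told from these values.

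TIGD1 turned to 0.16 on the hybridization controls and 0.27 on the poly-A controls, and was -0.089 to -0.030 with 1 array left out. On the hybridization controls ARSD turned to 0.015, ARSK to 0.022, BTBD10 to 0.20, CAMK2D to 0.15, FAM228A to 0.20, GFM1 to 0.17, HDHD2 to 0.084, KTI12 to 0.056, LARP7 to 0.013, SMAD2 to 0.10, SULF2 to 0.047 and ZFYVE9 to 0.19. On the poly-A controls AKT2 turned to 0.037, ARSD to 0.12, ARSK to 0.13, BTBD10 to 0.31, CAMK2D to 0.25, ERGIC1 to 0.036, FAM228A to 0.30, GFM1 to 0.28, HDHD2 to 0.19, HSPA14 to 0.024, KCTD1 to 0.062, KTI12 to 0.16, LARP7 to 0.12, ORC1 to 0.071, SMAD2 to 0.21, STK38 to 0.092, SULF2 to 0.15, WDCP to 0.028 and ZFYVE9 to 0.29. These turns follow from adding 1 value to every gene of an array. With the mean of all probe sets ARSI turned to -0.14, BTBD10 to 0.21, FAM228A to 0.043, GFM1 to 0.085, HDHD2 to 0.031, SMAD2 to 0.050 and ZFYVE9 to 0.10, and FAM228A stood at 0.0027 after repeated quantile normalization. With 1 array left out ARSI was -0.010 to 0.092, BTBD10 -0.031 to 0.0052, FAM228A -0.12 to 0.15, GFM1 -0.075 to 0.0074 and UGT8 -0.021 to 0.11. Equal medians moved every difference by only -0.0012 and turned no sign. The trend and robust settings of eBayes leave the differences unchanged and could turn none.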
